A study of Mus musculus with 4 samples.

Results

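The comparison set 1 library of mouse skin labelled PRP-MNs against 1 library labelled NC. Platelet-rich plasma (PRP) is blood plasma enriched in platelets, and microneedles (MNs) are short needles set side by side on a patch to cross the outermost skin layer. The series title names platelet-rich plasma microneedles and hair regrowth, and 2 further libraries of the series were labelled PRP and MNs. The labels give skin as the tissue of all 4 groups and do not spell out NC, which served as the reference; the sources used here give no strain, age, time of harvest or number of animals in a library. Genes entered where they reached 1 FPKM (fragment numbers divided by transcript length and by depth) in at least 1 of both libraries, which held for 13981 of the 25571 genes of the table. Of these, 11931 reached 1 FPKM in both libraries, 1279 in PRP-MNs alone and 771 in NC alone. All differences are log2 of the ratio of FPKM + 1, PRP-MNs over NC, a scale that understates the difference of low genes. With 1 library per group there is no replicate check and no p-value, and every value describes these libraries.

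Skin is built of a stratified epidermis over a dermis with vessels, fibroblasts, fat and a thin muscle sheet. Injured skin takes in leukocytes, whose surface carries pattern receptors, paired activating and inhibitory receptors and cytokine receptors. Activated macrophages are known for glucose uptake, for the mitochondrial product itaconate, for iron storage and for large lysosomes, while keratinocytes that differentiate switch on their own transcription factors, lipid enzymes and barrier proteins. Both libraries held the defining genes of skin: the basal keratin Krt14 was at 2055 against 3966 FPKM and the collagen gene Col1a1 at 139 against 120.3 FPKM in PRP-MNs and NC.

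At least 2-fold higher in PRP-MNs were 2462 of the 13981 genes (17.6%), and at least 2-fold lower were 1607 (11.5%), with a median of 0.14 over all genes tested. These percentages are the background for each list below, where counts are of members that reached 1 FPKM in either library. A member that entered through 1 library alone has its direction fixed by the filter, also in lists where this is not repeated. A difference of 4-fold or more was reached by 885 higher and 474 lower genes, and one of 16-fold or more by 164 higher and 17 lower genes. Among the higher genes, PRP-MNs held the highest value of the 4 libraries in 2061 (83.7%), and among the lower genes the lowest value in 1392 (86.6%). These genes were selected by the PRP-MNs value itself, which favours PRP-MNs as the extreme, here and in all such counts below. Such counts describe the order of the libraries and lend no support to a difference. From the spacing of low values, depth was near 17.2 M fragments for PRP-MNs and 19.4 M for NC, so that 3 fragments on a transcript of 1 kb were 0.174 and 0.155 FPKM. Steps of a size that gives 34.4 and 38.6 M matched as well, so depth may lie at either value, and these limits cover counting error only.

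Most lists of cell type markers held members past 2-fold. All 10 markers of suprabasal keratinocytes were lower by 2-fold or more, and their summed level was 2574 FPKM against 25611 FPKM in NC. Of 12 monocyte and macrophage markers 11 were at least 2-fold higher (sum 3011 against 340.2 FPKM), and 10 of the 11 present in both libraries. All 9 markers of blood endothelium were higher (234 against 28.5 FPKM), and all 8 of those present in both. Also higher were all 8 neutrophil markers that reached 1 FPKM (sum of the list 1052 against 238 FPKM, with Ly6g listed at 0 in NC). Of these 8, 3 had entered through PRP-MNs alone, which fixes their direction, and all 5 present in both were higher. The neutrophil markers Camp and Ngp did not reach 1 FPKM (log2 differences −0.02 and 0.13). Basal keratinocyte markers summed to 2959 against 6682 FPKM, with 3 of 9 at least 2-fold lower and 1 higher. No marker of skeletal muscle passed 2-fold in either direction (0 of 10, sum 10394 against 7476 FPKM), and fibroblast markers were at 1088 against 1018 FPKM with 2 of 10 higher and 2 lower. Of 10 sebocyte markers tested 7 were lower and 1 higher (3 of them had entered through NC alone), while 5 of 8 markers of pericytes and smooth muscle, 4 of 8 of adipocytes, 4 of 6 of Schwann cells and 4 of 5 of red cells were higher and none lower. Among the sparser lists, 2 of 5 T cell markers were lower, and 3 of 6 markers of Langerhans and dendritic cells were higher and 2 lower. Of the mast cell markers 2 of 6 were higher, and of the melanocyte markers 2 of 4 were higher and 1 lower. In these last 3 lists 2, 1 and 1 members had entered through PRP-MNs alone. Through NC alone had entered 1 marker of Langerhans and dendritic cells and 2 of melanocytes. Of the 3 Langerhans and dendritic cell markers present in both, 1 was higher and 1 lower. The 1 melanocyte marker present in both was higher. Of 10 platelet markers 7 stayed below 1 FPKM in both libraries, and the median without the filter was 0.03. The 3 tested held 2 higher ones, Pf4 and Ppbp, and Ppbp had entered through PRP-MNs alone. In bulk skin, a changed number of cells of a type and a changed amount of RNA per cell cannot be told apart, and the part of these markers in the differences below was not tested.

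**Figure D1:**
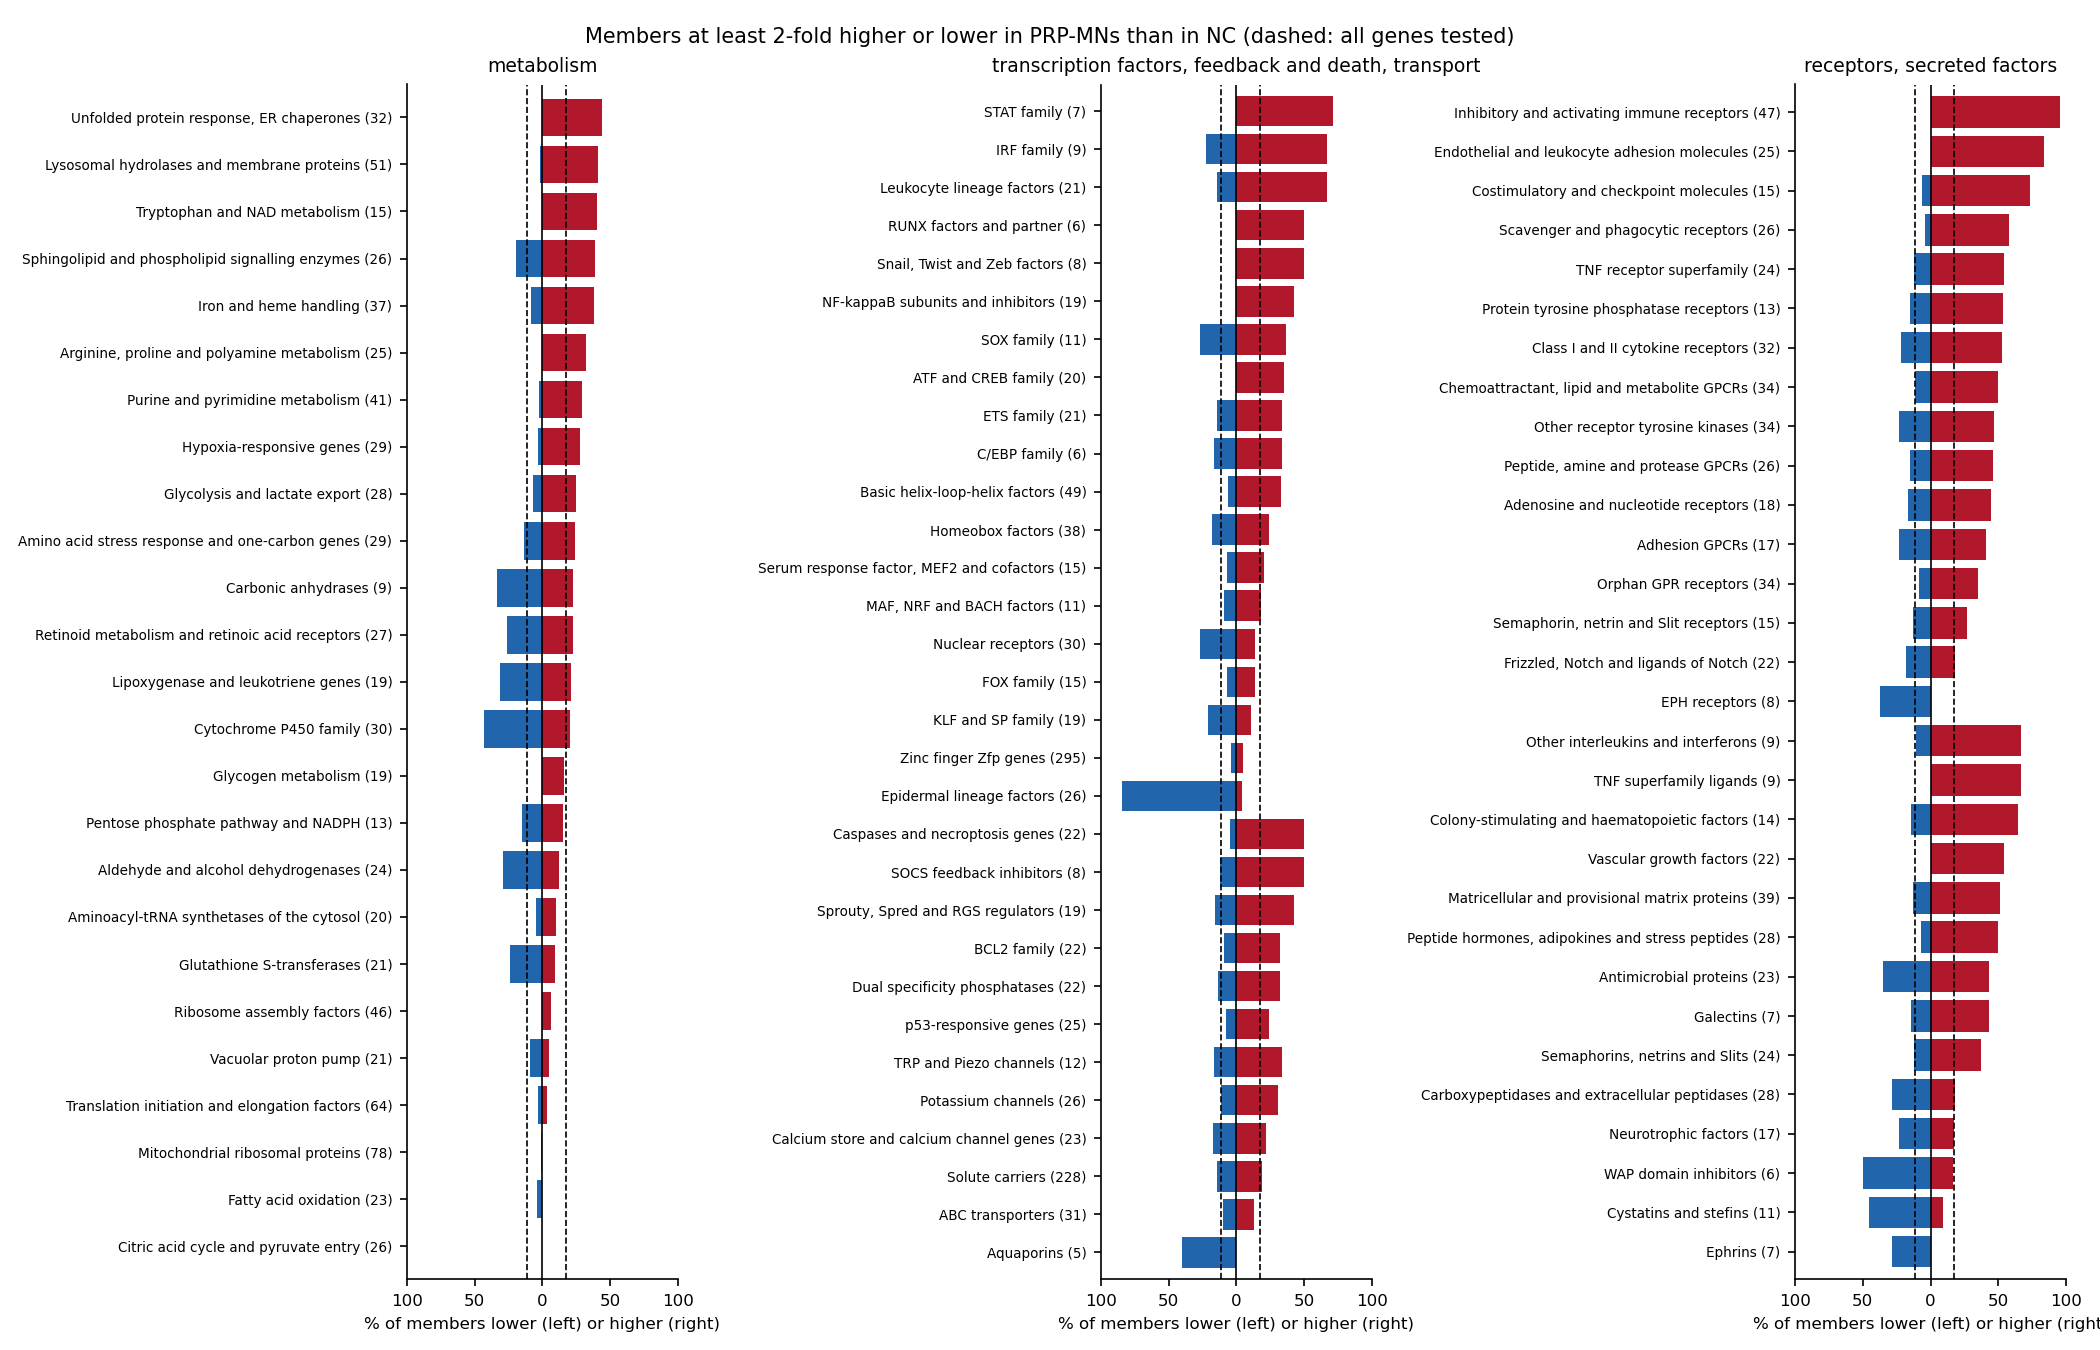
Share of the members of each list that were at least 2-fold higher (red, to the right) or lower (blue, to the left) in PRP-MNs than in NC, in percent of the members tested, whose number is in brackets. Dashed lines mark the shares over all genes, 17.6% and 11.5%; lists of immune receptors lie far to the right and epidermal lineage factors far to the left, while the citric acid cycle has no member on either side.

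In energy metabolism, mitochondrial genes stayed within 2-fold with few exceptions and a few genes of sugar entry were higher. None of 26 genes of the citric acid cycle and of pyruvate entry differed by 2-fold (0 higher, 0 lower, median −0.04), and their differences ran from −0.97 for the cytosolic malate dehydrogenase gene Mdh1 to 0.91 for Aco1, a cytosolic aconitase that also acts as an iron sensor. Of 23 genes of fatty acid oxidation 1 was lower and none was higher (median −0.16), the lower one being Hadh at 29.4 against 65.5 FPKM. Among 78 mitochondrial ribosomal protein genes 1 was lower and none higher (median −0.10). Of 28 genes of glycolysis and lactate export 7 were higher and 2 lower, with a median of 0.20, close to that of all genes.

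The 7 higher genes of glycolysis lay at steps of entry, control and export. Among them, Slc2a3 and Hk3 had entered through PRP-MNs alone, which fixes their direction. Over the 24 members of the list present in both libraries 5 were higher and 1 lower (median 0.15). Slc2a3, the high-affinity glucose transporter GLUT3, was at 21.4 FPKM in PRP-MNs and 0.71 in NC, with 0.90 in PRP and 1.63 in MNs (log2 difference 3.71), so that PRP-MNs alone stood above 2 FPKM. The hexokinase gene Hk3, which myeloid cells express, was at 21.6 FPKM in PRP-MNs and 0.79 in NC, with 3.24 in PRP and 6.72 in MNs. Slc16a3, the lactate exporter MCT4, was at 44.2 against 9.12 FPKM, Hk2 at 35.0 against 11.4 FPKM and the pyruvate kinase gene Pkm at 723 against 342 FPKM. The middle of the pathway did not move with them: Aldoa was at 1688 against 1709 FPKM, Pgk1 at 225 against 194 FPKM and Ldha at 637 against 609 FPKM. Slc2a1, the transporter of basal keratinocytes and many other cells, was at 36.3 against 24.9 FPKM. In the pentose phosphate list 2 of 13 genes were higher and 2 lower, with H6pd, which makes NADPH inside the endoplasmic reticulum, at 25.4 against 3.63 FPKM and the malic enzyme gene Me1 at 32.7 against 87.9 FPKM.

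Acod1, which encodes the enzyme that turns cis-aconitate into itaconate in activated macrophages, lies on chromosome 14 from 103046977 to 103056573 (GRCm38, plus strand). It was at 141 FPKM in PRP-MNs and 0.58 in NC, with 2.64 in PRP and 1.86 in MNs, a log2 difference of 6.49. The PRP, MNs and NC libraries were all below 3 FPKM, and PRP-MNs stood apart from all 3.

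Nucleotide metabolism differed in 13 of 41 genes, 12 higher and 1 lower (median 0.63). Of these 41, 3 had entered through PRP-MNs alone, Cmpk2 and Upp1 among them, which fixes their direction. Over the 38 present in both libraries 9 were higher and 1 lower (median 0.52). The mitochondrial nucleotide kinase gene Cmpk2, an interferon-responsive neighbour of Rsad2, was at 57.9 FPKM in PRP-MNs and 0.68 in NC, with 6.78 in PRP and 2.75 in MNs (log2 difference 5.14). The uridine phosphorylase gene Upp1, which frees ribose from uridine, was at 33.7 FPKM in PRP-MNs and 0.60 in NC, with 2.25 in PRP and 7.36 in MNs (4.44). Also higher were genes that degrade or salvage purines: Entpd1 (CD39), which removes phosphate from extracellular ATP, at 51.0 against 5.67 FPKM, the guanine deaminase gene Gda at 75.2 against 10.9 FPKM and the purine nucleoside phosphorylase gene Pnp at 108 against 17.7 FPKM. Samhd1, which cleaves deoxynucleotides and restricts viruses, was at 146 against 23.0 FPKM. The lower gene was Nt5c3, a pyrimidine nucleotidase gene, at 49.4 against 164 FPKM. Pnp and Pnp2 are near copies, and their split of fragments is uncertain.

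Of 25 genes of arginine, proline and polyamine metabolism 8 were higher and none was lower (median 0.47). Odc1, the first enzyme of polyamine synthesis, was at 353 FPKM in PRP-MNs and 77.5 in NC, with 112 in PRP and 131 in MNs, so that PRP-MNs was highest and NC lowest. The arginases Arg2 and Arg1, which compete with nitric oxide synthases for arginine, were at 20.2 against 2.13 FPKM and at 29.7 against 8.41 FPKM. Of the nitric oxide synthases, the inducible form Nos2 was at 3.18 against 0.13 FPKM and the endothelial form Nos3 at 12.7 against 1.04 FPKM. In the tryptophan and NAD list 6 of 15 genes were higher and none lower (median 0.89), but 4 of the 15 had entered only through PRP-MNs and the median over the 11 present in both libraries was 0.50 (0.38 over all members without the filter). Bst1 (CD157), a cell surface enzyme that consumes NAD, was at 37.1 against 1.45 FPKM, and Nampt, the rate-limiting enzyme of NAD salvage, at 47.2 against 12.3 FPKM.

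Amino acid genes gave no single direction, with 7 of 29 members of the stress response and one-carbon list higher and 4 lower (median −0.04). The cystine importer Slc7a11 was at 11.6 against 1.54 FPKM, the mitochondrial folate enzyme Mthfd2 at 20.2 against 5.63 FPKM and the stress factor Ddit3 (CHOP) at 32.9 against 9.72 FPKM. The serine synthesis gene Phgdh was lower at 10.5 against 32.9 FPKM, as were the glutathione-degrading enzyme Chac1 at 3.41 against 11.3 FPKM and cystathionine beta-synthase (Cbs) at 0.37 against 6.23 FPKM. Thus Ddit3 and Chac1, both known targets of the ATF4 branch of the stress response, stood on opposite sides.

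Of 32 genes of the unfolded protein response and of these chaperones 14 were at least 2-fold higher, 18 stayed within 2-fold and none was lower, with a median of 0.85, and 31 of the 32 reached 1 FPKM in both libraries. Hspa5, which encodes the chaperone BiP (chromosome 2 from 34771970 to 34777547, plus strand), was at 396 FPKM in PRP-MNs and 85.9 in NC, with 142 in PRP and 219 in MNs (2.19). Calreticulin (Calr) was at 430.1 against 142 FPKM, the protein disulphide isomerase gene Pdia6 at 174 against 60.4 FPKM, Hyou1 at 44.0 against 13.1 FPKM and the secreted stress factor Manf at 79.8 against 32.1 FPKM. The sensors themselves differed by less or not by 2-fold: Atf6 was at 20.1 against 7.71 FPKM, Ern1 (IRE1) at 8.10 against 4.04 FPKM and Eif2ak3 (PERK) at 6.23 against 4.72 FPKM. Xbp1 was at 108 against 87.3 FPKM, a level that sums spliced and unspliced forms. For comparison, 2 of 64 translation factors were higher and 2 lower (median −0.10), and 3 of 46 ribosome assembly factors were higher (median 0.32).

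**Figure D2:**
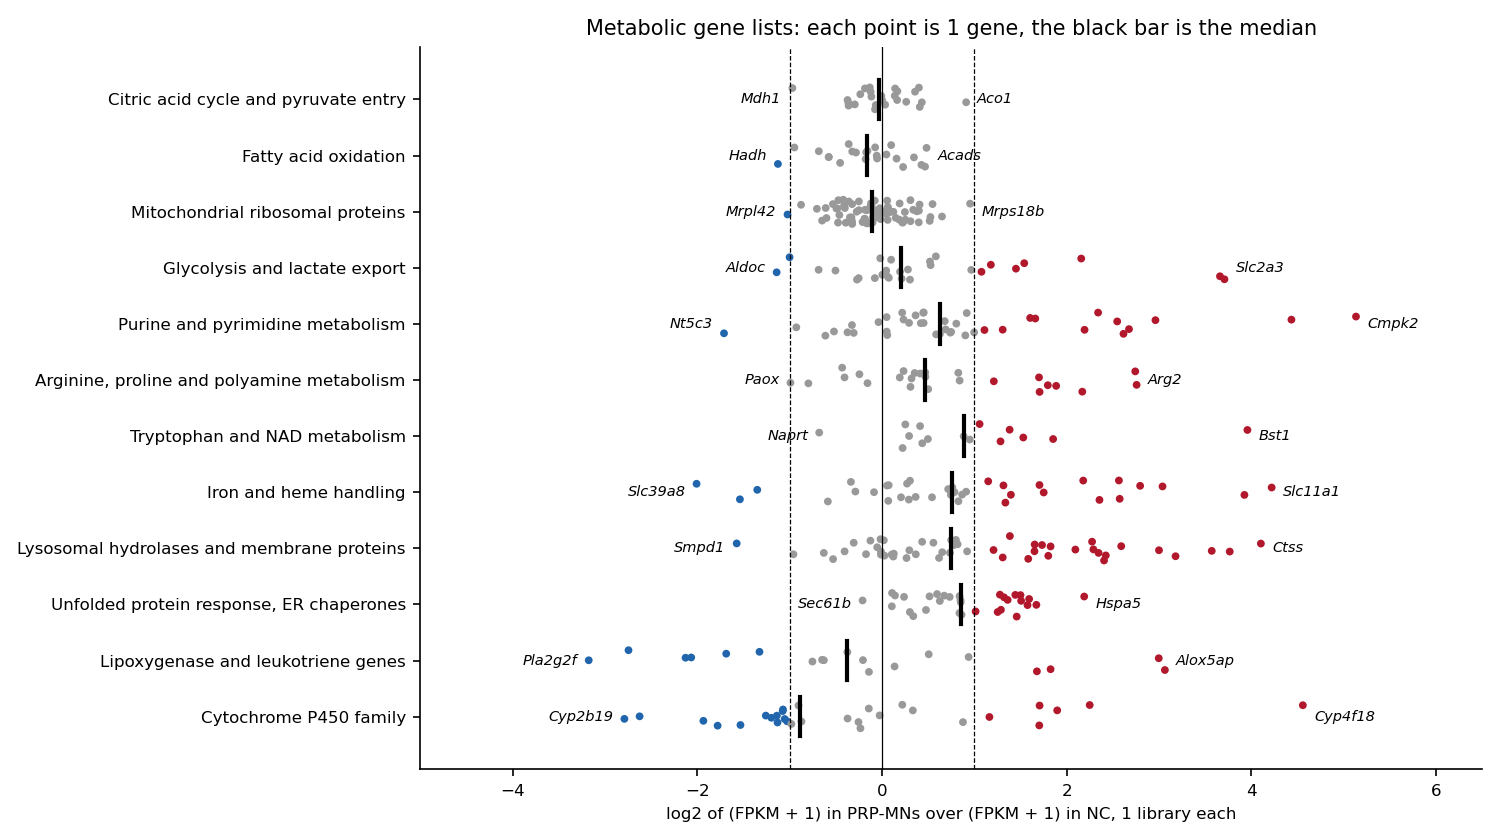
Log2 difference of FPKM + 1, PRP-MNs over NC, for every tested gene of 12 metabolic lists. Red and blue points are at least 2-fold higher or lower, grey points are not, dashed lines mark 2-fold and black bars are medians; citric acid cycle genes stay between the dashed lines (median −0.04), while chaperones (0.85) and lysosomal genes (0.75) extend to the right and cytochrome P450 genes (−0.89) to the left.

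Of 37 genes of iron and heme handling 14 were higher and 3 lower (median 0.76), and both ferritin genes were among the higher ones. The ferritin light chain gene Ftl1 was at 2379 FPKM in PRP-MNs and 341 in NC, with 923 in PRP and 1121 in MNs (2.80), and the heavy chain gene Fth1 was at 3236 against 991 FPKM. Both ferritins were lowest in NC and highest in PRP-MNs. Slc11a1 (NRAMP1), which moves iron and manganese out of the phagosome, was at 54.6 against 1.98 FPKM, the zinc and iron importer Slc39a14 at 44.3 against 1.98 FPKM and the heme oxygenase Hmox1 at 166 against 35.9 FPKM. The 3 lower genes were the iron exporter Slc40a1 (ferroportin) at 6.5 against 18.1 FPKM, its partner ferroxidase Heph at 1.28 against 5.61 FPKM and Slc39a8 at 2.96 against 14.9 FPKM. The transferrin receptor Tfrc, at 20.0 against 25.5 FPKM, did not differ by 2-fold.

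Lysosomal genes were uneven: 21 of 51 were higher, 1 was lower and the median was 0.75, with all 51 present in both libraries. The cysteine protease Ctss, which trims antigens in myeloid cells (chromosome 3 from 95526786 to 95556403, plus strand), was at 571 FPKM in PRP-MNs and 32.3 in NC, with 214 in PRP and 167 in MNs (4.10). Other members were Lgmn at 367 against 29.9 FPKM, Ctsz at 197 against 20.8 FPKM, Psap, the precursor of the saposins, at 749 against 123 FPKM and Ctsb at 538 against 110.2 FPKM. Members within 2-fold included Lamp1 at 311 against 211 FPKM, Lamp2 at 184 against 186 FPKM and Ctsd at 628 against 373 FPKM. Smpd1, the acid sphingomyelinase that serves the barrier lipids of the epidermis, was the lower member at 24.3 against 74.4 FPKM. The vacuolar proton pump that acidifies lysosomes had 1 of 21 genes higher and 2 lower (median −0.10), the lower ones being the tissue-restricted subunits Atp6v1c2 (12.1 against 86.3 FPKM) and Atp6v0a4 (2.51 against 11.9 FPKM). The higher lysosomal and iron genes stood beside the higher macrophage markers (sum 3011 against 340.2 FPKM), and the part of those cells in them was not tested.

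Cytochrome P450 genes were lower in 13 of 30 and higher in 6, with a median of −0.89, but 10 of the 30 had entered through NC alone and the median over the 18 present in both was −0.24. A further 70 genes of this family were below 1 FPKM in both libraries. Cyp2b19, an epoxygenase of keratinocytes, was at 4.47 against 36.9 FPKM and the steroid enzyme Cyp17a1 at 0.88 against 10.6 FPKM, whereas Cyp4f18, which inactivates leukotriene B4 in neutrophils, was at 37.4 FPKM in PRP-MNs and 0.63 in NC, with 3.04 in PRP and 3.25 in MNs. In the lipoxygenase list 6 of 19 were lower and 4 higher (median −0.37). The epidermal lipoxygenases Aloxe3 and Alox12b were at 4.82 against 38.0 FPKM and at 17.5 against 58.7 FPKM and the secreted phospholipase gene Pla2g2f at 56.2 against 516 FPKM, and the leukocyte genes Alox5ap, partner of 5-lipoxygenase, and Pla2g7, which degrades platelet-activating factor, were at 141 against 15.9 FPKM and at 74.1 against 8.39 FPKM. In sphingolipid and phospholipid signalling (10 of 26 higher, 5 lower), the leukocyte kinase genes Pik3cd and Pik3r5 were at 19.2 against 2.60 FPKM and at 18.8 against 1.65 FPKM, while Sphk1, the sphingosine kinase, was at 11.5 against 65.2 FPKM and the sphingosine phosphate phosphatase Sgpp1 at 27.1 against 116 FPKM.

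Retinoid genes were balanced, 6 of 27 higher and 7 lower (median −0.20). Rdh10, which makes retinal for retinoic acid synthesis, was at 18.6 against 3.21 FPKM and the synthesis enzyme Aldh1a3 at 22.2 against 8.98 FPKM, and the receptor genes parted: Rara was at 16 against 6.34 FPKM and Rarg, the main epidermal form, at 23.8 against 71.7 FPKM. Aldehyde and alcohol dehydrogenases were lower in 7 of 24 and higher in 3, with Aldh3a1 at 1.33 against 22.5 FPKM. Glutathione S-transferase genes were lower in 5 of 21 and higher in 2. The lower enzymes stood beside lower suprabasal markers (10 of 10, sum 2574 against 25611 FPKM) and lower sebocyte markers (7 of 10), whose part in the result was not tested. Among hypoxia-responsive genes 8 of 29 were higher and 1 lower (median 0.53), led by the vasodilator peptide Adm at 20.6 against 2.22 FPKM, and Hif1a itself was at 109 against 54.0 FPKM.

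Transcription factors of the epidermis were lower almost throughout. Of 26 genes in the list of epidermal lineage factors 22 were at least 2-fold lower and 1 was higher, with a median of −1.57, against 11.5% lower over all genes, and 24 of the 26 were present in both libraries. PRP-MNs held the lowest value of the 4 libraries in 18 of the 22. The list also held Cers3, which is a ceramide synthase and not a transcription factor.

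Pou2f3, a POU factor of suprabasal keratinocytes (chromosome 9 from 43123939 to 43210369, minus strand), was at 4.75 FPKM in PRP-MNs and 58.8 in NC, with 31.1 in PRP and 13.5 in MNs (−3.38). Gata3, which directs epidermal barrier lipids and the inner root sheath, was at 4.50 FPKM in PRP-MNs and 37.6 in NC, with 25.3 in PRP and 10.7 in MNs (−2.81). Grhl1, a grainyhead factor of desmosome genes, was at 17.2 FPKM in PRP-MNs and 105 in NC, with 65.5 in PRP and 36.0 in MNs, and its relative Grhl3, needed for barrier formation, was at 20.2 against 82.6 FPKM. In the first 3 of these the order was NC, PRP, MNs and PRP-MNs from high to low. Klf4, a barrier factor, was at 44.1 against 256 FPKM, Ovol1 at 14.3 against 78.5 FPKM and Zfp750, which drives terminal differentiation, at 15.3 against 70.5 FPKM. Trp63, the master factor of the epithelial lineage and also a basal marker, was lower by less, at 22.4 against 66.3 FPKM. The 1 higher member was Runx1, a factor of both hair follicle and blood cells (3.23).

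Related families also held keratinocyte genes on their lower side. Among 19 KLF and SP genes 4 were lower and 2 higher, with the epithelial factor Sp6 at 3.22 against 25.7 FPKM and the endothelial factor Klf2 at 14.2 against 5.37 FPKM. Of 38 homeobox factors outside the Hox clusters 9 were higher and 7 lower: Dlx3 and Dlx5, factors of epidermis and hair, were at 2.41 against 13.1 FPKM and at 1.44 against 8.68 FPKM. Of 30 nuclear receptors 8 were lower and 4 higher (median −0.29). Rora was at 8.36 against 42.7 FPKM, Rarg, Rxra and the vitamin D receptor Vdr were lower by 2-fold or more (Vdr at 4.81 against 16.2 FPKM), and the oxysterol receptor Nr1h3 (LXR alpha) was higher at 13.6 against 2.81 FPKM. Cebpa was at 27.3 against 111 FPKM and its relative Cebpd at 14.6 against 3.06 FPKM, so the C/EBP family did not share a direction. The broad family of zinc finger Zfp genes had 15 of 295 higher and 11 lower (median 0.09).

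The interferon regulatory factors (IRF) transmit and sustain interferon signals, and STAT proteins carry cytokine signals to the nucleus. Of 9 IRF genes 6 were higher and 2 lower (median 1.98), and of 7 STAT genes 5 were higher and none lower (median 1.38). Irf7, the amplifier of type I interferon (chromosome 7 from 141262706 to 141266481, minus strand), was at 320.3 FPKM in PRP-MNs and 9.98 in NC, with 111 in PRP and 16.8 in MNs (4.87), with PRP second. Irf1 was at 53.2 against 6.02 FPKM, the myeloid factor Irf8 at 20.4 against 1.91 FPKM and Irf5 at 54.8 against 10.2 FPKM. Irf3, which is held ready in most cells, was at 17.2 against 20.7 FPKM, and the lower members included the lymphocyte factor Irf4 (0.85 against 3.87 FPKM). Stat2, partner of Irf9 in the interferon complex (chromosome 10 from 128270559 to 128292849, plus strand), was at 59.5 FPKM in PRP-MNs and 4.18 in NC, with 13.6 in PRP and 8.63 in MNs (3.55). Stat3 and Stat6 stayed within 2-fold at 73.5 against 49.97 FPKM and at 35.6 against 28.0 FPKM.

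Promoter sequence is shown for 1 higher gene each of metabolism, transcription factors, receptors and secreted factors that held the letters GAAANNGAA, a short form of the interferon response element, on either strand before its start. The sequences come from RefSeq (GRCm38.p6), run 5′ to 3′ on the strand of the gene, and capitals mark the match. They are Ctss at chr3:95526705-95526785 (plus strand), Stat2 at chr10:128270248-128270345 (plus strand), Cd300lf at chr11:115134068-115134196 (minus strand) and Chil3 at chr3:106167565-106167682 (minus strand).
Ctss: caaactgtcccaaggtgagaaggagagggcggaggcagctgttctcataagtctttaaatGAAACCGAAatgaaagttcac
Stat2: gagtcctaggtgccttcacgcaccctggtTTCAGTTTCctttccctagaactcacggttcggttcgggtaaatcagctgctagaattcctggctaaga
Cd300lf: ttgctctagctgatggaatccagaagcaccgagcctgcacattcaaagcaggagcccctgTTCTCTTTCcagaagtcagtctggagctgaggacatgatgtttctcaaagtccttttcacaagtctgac
Chil3: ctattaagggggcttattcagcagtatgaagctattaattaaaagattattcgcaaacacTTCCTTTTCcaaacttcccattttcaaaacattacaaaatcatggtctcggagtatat
In Ctss the match begins 21 bases before the start site and in Chil3 58 bases before it, while Stat2 and Cd300lf carry it farther out, at 221 and 144 bases. The Stat2, Cd300lf and Chil3 matches read on the opposite strand, as TTCNNTTTC. In windows of 300 bases, from 250 before to 50 after the start, the letters occurred in 32.5% of the 200 highest genes with a RefSeq promoter, in 8.0% of the 200 lowest and in 8.57% of all promoters in the table. Only 10406 of 13149 tested symbols (79.1%) had an entry, and 7.58% of these held the letters. The 200 highest and 200 lowest were taken from genes at 5 FPKM or more in either library. The tested symbols include all genes at 1 FPKM or more, so the shares compared rest on unlike cutoffs. The tested symbols without an entry could not be searched, so these shares describe genes with an entry. A match is a string of letters and not a bound site.

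NF-kappaB genes, which relay signals of cytokine and pattern receptors, were higher in 8 of 19 and lower in none (median 0.58). The inhibitors and late partners led: Nfkbie was at 23.6 against 2.38 FPKM, Nfkbid at 11 against 1.58 FPKM and Nfkb2 at 28.5 against 8.17 FPKM. In the ATF and CREB family 7 of 20 were higher and none lower (median 0.61), but 4, the leukocyte factor Batf among them (at 9.21 against 0.70 FPKM), had entered through PRP-MNs alone. Over the 16 present in both, 4 were higher (median 0.30), with Crem at 34.3 against 7.81 FPKM.

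Of 21 leukocyte lineage factors 14 were higher and 3 lower (median 1.18, or 0.44 without the filter on low values), of which 4 had entered through PRP-MNs alone. Spi1 (PU.1), the master factor of myeloid cells, was at 62.9 FPKM in PRP-MNs and 6.85 in NC, with 21.4 in PRP and 26.4 in MNs (3.03), and Nfil3 was at 23.4 against 2.28 FPKM. The ETS family (7 of 21 higher, 3 lower) also held endothelial factors on its higher side: Erg was at 9.86 against 1.01 FPKM, Ets1 at 17.5 against 3.13 FPKM and Fli1 at 7.59 against 1.13 FPKM, and Sox18, a factor of growing vessels, was at 14.6 against 1.25 FPKM. These stood beside higher endothelial markers (9 of 9, sum 234 against 28.5 FPKM), whose part was not tested.

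Of 8 Snail, Twist and Zeb genes, factors of mesenchymal character, 4 were higher, 4 stayed within 2-fold and none was lower (median 1.20, or 0.57 without the filter). Snai1 had entered through PRP-MNs alone, which fixes its direction, and over the 7 present in both 3 were higher (median 0.57). Zeb2, which macrophages also express, was at 52.2 FPKM in PRP-MNs and 5.07 in NC, with 11.9 in PRP and 29.9 in MNs (3.13), and Snai1 was at 9.33 FPKM in PRP-MNs and 0.54 in NC, with 0.83 in PRP and 6.95 in MNs. In both genes MNs was second. Twist1 and Twist2, factors of dermal fibroblasts, were at 9.53 against 6.10 FPKM and at 5.50 against 5.38 FPKM in PRP-MNs and NC, and their highest values were in MNs.

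Of 49 basic helix-loop-helix genes 16 were higher and 3 lower (median 0.45), against 11 and 2 of the 40 present in both, and a factor of the muscle lineage differed most. Myod1, which commits satellite cells to the muscle lineage (chromosome 7 from 46376474 to 46379099, plus strand), was at 21.1 FPKM in PRP-MNs and 0.37 in NC, with 0.57 in PRP and 1.77 in MNs (log2 difference 4.0). Its relative Myf6 was at 40.7 FPKM in PRP-MNs and 5.94 in NC, with 23.7 in PRP and 17.4 in MNs (2.59). Ankrd1, a stretch- and injury-responsive cofactor of muscle, had 25.7 FPKM in the PRP library and 19.1 FPKM in the MNs library, between its levels in NC and PRP-MNs (log2 difference 7.52), and the tendon factor Scx was at 12.5 against 1.40 FPKM. Skeletal muscle markers themselves did not pass 2-fold (0 of 10), with Ckm at 701 against 613 FPKM and Acta1 at 4777 against 2873 FPKM. Mycl and Id4, at 1.57 against 13 FPKM and at 1.72 against 16.4 FPKM, led the lower side of this family, while Myc was at 34.2 against 33.0 FPKM.

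**Figure D3:**
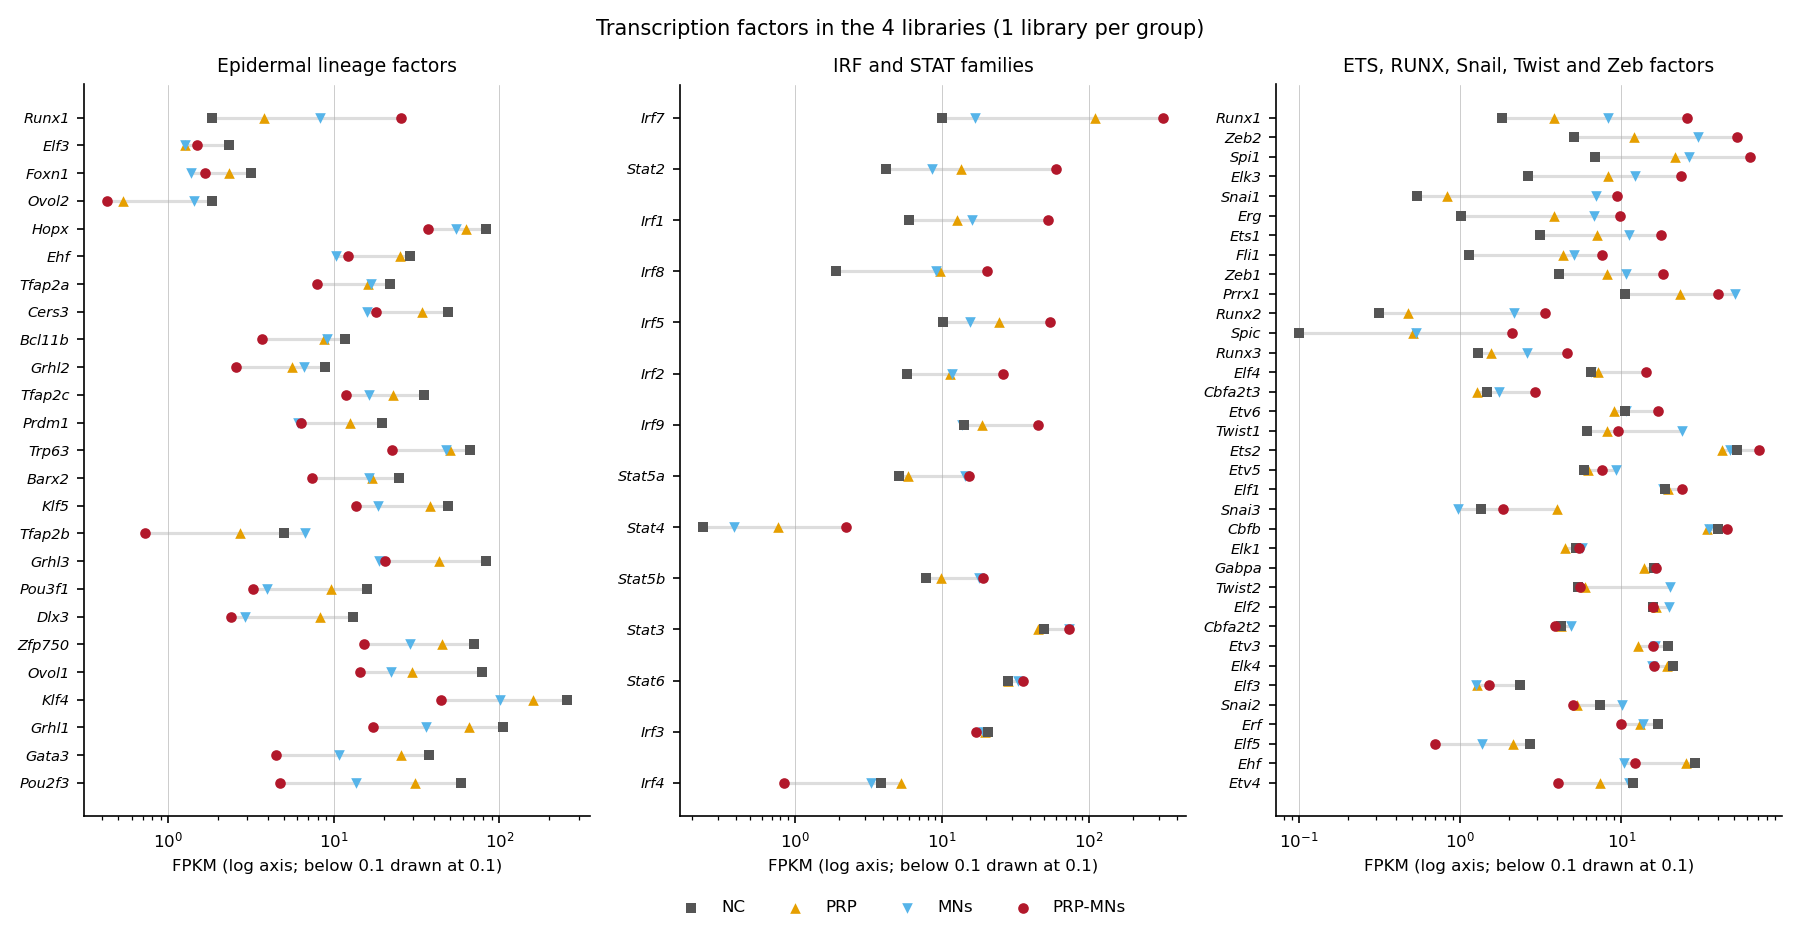
FPKM on a log axis in the 4 libraries for transcription factor families, 1 point per library, ordered by the log2 difference between PRP-MNs (red circles) and NC (grey squares). Most epidermal lineage factors have PRP-MNs to the left of NC, though it is not the lowest library in each. Runx1 (25.6 against 1.83 FPKM) has it to the right. The IRF and STAT genes drawn have PRP-MNs to the right of NC except Irf3 and Irf4. Not every member of these families is drawn.

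Receptors on leukocytes held the largest share of higher members among the lists with at least 5 genes tested, cell type markers aside. Of 47 paired inhibitory and activating immune receptors 45 were at least 2-fold higher and none lower, with a median of 2.96, against 17.6% higher over all genes. A total of 27 had entered through PRP-MNs alone, which fixes their direction, and of the 20 present in both libraries 18 were higher (median 2.67). The inhibitory receptor Lilrb4a was at 247 FPKM in PRP-MNs and 3.37 in NC, with 25.3 in PRP and 32.5 in MNs (5.83) and its near copy Lilr4b was at 214 against 2.15 FPKM. Trem1, which amplifies neutrophil and monocyte activation, was at 45.0 FPKM in PRP-MNs and 0.24 in NC, with 1.04 in PRP and 2.77 in MNs (5.21), and Pirb was at 61.7 against 2.21 FPKM. Sirpa, the receptor of the signal CD47, and Cd47 were at 90.8 against 10.9 FPKM and at 61.8 against 21.0 FPKM. The Lilr, Sirpb1, Cd300 and Pir genes are families of close copies, so the split of fragments between members is uncertain.

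Receptors that guide leukocytes were higher in 17 of 34 chemoattractant, lipid and metabolite receptor genes and lower in 4 (median 1.13, or 0.57 without the filter), and over the 22 present in both 11 were higher and 2 lower. Fpr2, a receptor of formyl peptides, was at 47.2 FPKM in PRP-MNs and 0.18 in NC, with 5.97 in PRP and 3.89 in MNs (5.35). The complement receptors C5ar1 and C3ar1 were at 62.5 against 2.29 FPKM and at 56.1 against 1.61 FPKM, and Ptafr, the receptor of platelet-activating factor, at 43.4 against 2.64 FPKM. The lower members were Ltb4r2, Lpar2, Lpar3 and S1pr5, the last at 1.08 against 11 FPKM, while the endothelial receptor S1pr1 was at 27.3 against 3.83 FPKM. Of 25 adhesion molecules of leukocytes and endothelium 21 were higher and none lower (median 2.46), as were 15 of the 19 present in both libraries. The endothelial selectins Selp and Sele were at 30.6 against 0.52 FPKM and at 14.3 against 0.20 FPKM. Scavenger and phagocytic receptors were higher in 15 of 26 and lower in 1, with Msr1 at 73.3 against 1.26 FPKM and the beta-glucan receptor Clec7a at 74.4 against 4.49 FPKM, and Scara5, an iron-ferritin receptor of fibroblasts, lower at 3.51 against 20.3 FPKM.

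Of 32 class I and II receptor genes 17 were higher and 7 lower (median 1.05, or 0.65 without the filter). Of the 32, 6 had entered through PRP-MNs alone and 4 through NC alone, which fixes their direction. Over the 22 present in both, 13 were higher and 3 lower (median 1.52), and the 3 were Il20ra, Il20rb and Il22ra1, receptor chains of epithelia. Il4ra, the shared chain for interleukin-4 and interleukin-13, was at 125 FPKM in PRP-MNs and 8.57 in NC, with 26.2 in PRP and 60.6 in MNs (3.71). The GM-CSF receptor genes Csf2ra and Csf2rb were at 39.7 against 4.06 FPKM and at 48.8 against 5.43 FPKM, and the type I interferon receptor genes Ifnar1 and Ifnar2 at 39.9 against 7.67 FPKM and at 29.5 against 6.8 FPKM. Il20rb was at 7.95 FPKM in PRP-MNs and 86.7 in NC, with 40.2 in PRP and 27.1 in MNs (−3.29), Il20ra at 2.18 against 18.1 FPKM, Il22ra1 at 2.54 against 12.3 FPKM and the type III interferon receptor Ifnlr1 at 0.97 against 5.24 FPKM. Il1rl1 (ST2), the receptor of interleukin-33 (chromosome 1 from 40429570 to 40465415, plus strand), was at 112 FPKM in PRP-MNs and 0.79 in NC, with 1.77 in PRP and 10.3 in MNs (5.98), and its ligand Il33 was at 119 against 38.2 FPKM. Of the interleukin-17 receptors, Il17ra was at 14.5 against 3.09 FPKM and Il17rc, an epithelial chain, at 24.3 against 80.5 FPKM.

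Of 24 TNF receptor genes 13 were higher and 3 lower (median 1.10, or 0.75 without the filter), and over the 19 present in both 10 were higher and 2 lower. Tnfrsf1b (TNFR2), the form of leukocytes and endothelium, was at 58.8 FPKM in PRP-MNs and 2.54 in NC, with 14.5 in PRP and 15.1 in MNs (4.08), while the broadly expressed Tnfrsf1a was at 139 against 87.3 FPKM. Fas was at 13.1 against 4.37 FPKM. Tnfrsf19 (TROY), a gene of hair follicle and epidermis, was at 5.09 FPKM in PRP-MNs and 40.7 in NC, with 29.2 in PRP and 14.6 in MNs (−2.78). Of 15 costimulatory and checkpoint genes 11 were higher and 1 lower (median 1.94, or 0.54 without the filter), with Cd274 (PD-L1) at 4.09 FPKM in both PRP and MNs and at 37.5 against 2.42 FPKM in PRP-MNs and NC.

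Of 34 receptor tyrosine kinases outside the EPH family 16 were higher and 8 lower (median 0.82, or 0.24 without the filter), and 6 had entered through PRP-MNs alone. Over the 28 present in both, 11 were higher and 8 lower (median 0.50). Pdgfrb, of pericytes and fibroblasts, was at 19.5 FPKM in PRP-MNs and 2.58 in NC, with 7.41 in PRP and 27.1 in MNs (2.52), and the vascular receptors Kdr (VEGFR2) and Flt1 (VEGFR1) were at 16.2 against 1.47 FPKM and at 12.3 against 1.47 FPKM. On the lower side were Fgfr3 at 7.81 against 33.7 FPKM, Erbb3 at 7.64 against 27.3 FPKM and Erbb2 at 9.61 against 27.9 FPKM, receptors of keratinocytes, while Egfr was at 11.4 against 8.71 FPKM. In all 8 lower kinases PRP-MNs held the lowest value of the 4 libraries, whereas it held the highest in 8 of the 16 higher ones. EPH receptors had 3 of 8 lower and none higher, with Ephb6 at 5.18 against 38.2 FPKM and Epha1 at 5.89 against 35.3 FPKM, and of their ligands Efna3 was at 6.03 against 59.5 FPKM.

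Among other receptors, Hrh2, a histamine receptor, was at 5.85 against 0.12 FPKM, the purine receptors P2rx4 and P2ry6 at 41.9 against 5.46 FPKM and at 18.5 against 2.35 FPKM, and the protease-activated receptor F2rl1, of keratinocytes, at 5.12 against 21.1 FPKM. Mrgprb2, the receptor by which mast cells answer peptides and drugs, was at 0.54 FPKM in PRP-MNs and 12.9 in NC, with 5.81 in PRP and 1.52 in MNs (−3.18). Other mast cell genes did not follow it: Mcpt4 was at 10.8 against 12.8 FPKM, Cpa3 at 7.22 against 7.01 FPKM and Cma1 at 12.6 against 8.94 FPKM. The largest difference in the list of mast cell markers was that of Hdc, which was higher (5.65). In that list 2 of 6 members tested were higher and 0 lower. The orphan adhesion receptor Adgrf4 was at 7.26 FPKM in PRP-MNs and 67.8 in NC, with 38.5 in PRP and 27.8 in MNs (−3.06).

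The AP-1 letters TGANTCA occurred in 19.5% of the 200 lowest genes with a promoter entry and in 17% of the 200 highest. They occurred in 5.72% of the tested genes with an entry and in 7.93% of all promoters. The 3 lower receptor genes with the largest difference that held these letters before the start are shown in the same form. They are Mrgprb2 at chr7:48558143-48558269 (minus strand), Adgrf4 at chr17:42692342-42692468 (minus strand) and Il20ra at chr10:19712363-19712489 (plus strand).
Mrgprb2: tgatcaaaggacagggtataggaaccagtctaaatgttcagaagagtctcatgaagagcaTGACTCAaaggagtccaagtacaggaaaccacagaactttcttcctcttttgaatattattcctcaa
Adgrf4: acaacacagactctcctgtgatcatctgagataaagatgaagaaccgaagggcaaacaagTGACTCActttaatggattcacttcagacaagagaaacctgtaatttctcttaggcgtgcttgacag
Il20ra: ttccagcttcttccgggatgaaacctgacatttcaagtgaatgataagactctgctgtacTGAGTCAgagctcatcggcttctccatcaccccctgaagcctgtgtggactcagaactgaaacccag
The match shown begins 123, 124 and 164 bases before the start in Mrgprb2, Adgrf4 and Il20ra. Adgrf4 held 2 matches before the start, of which 1 lies in the stretch shown. Both ends of the ranking held these letters, and 14 of the 200 highest and 6 of the 200 lowest promoters held the interferon letters as well. AP-1 was not alone in exceeding the tested genes at both ends. TATA box letters occurred in 20.5% of the highest, 21.0% of the lowest and 8.04% of the tested genes. C/EBP letters (TTNNGCAA) occurred in 13.5%, 18.0% and 8.79%. The coverage of 79.1% given above applies here too.

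**Figure D4:**
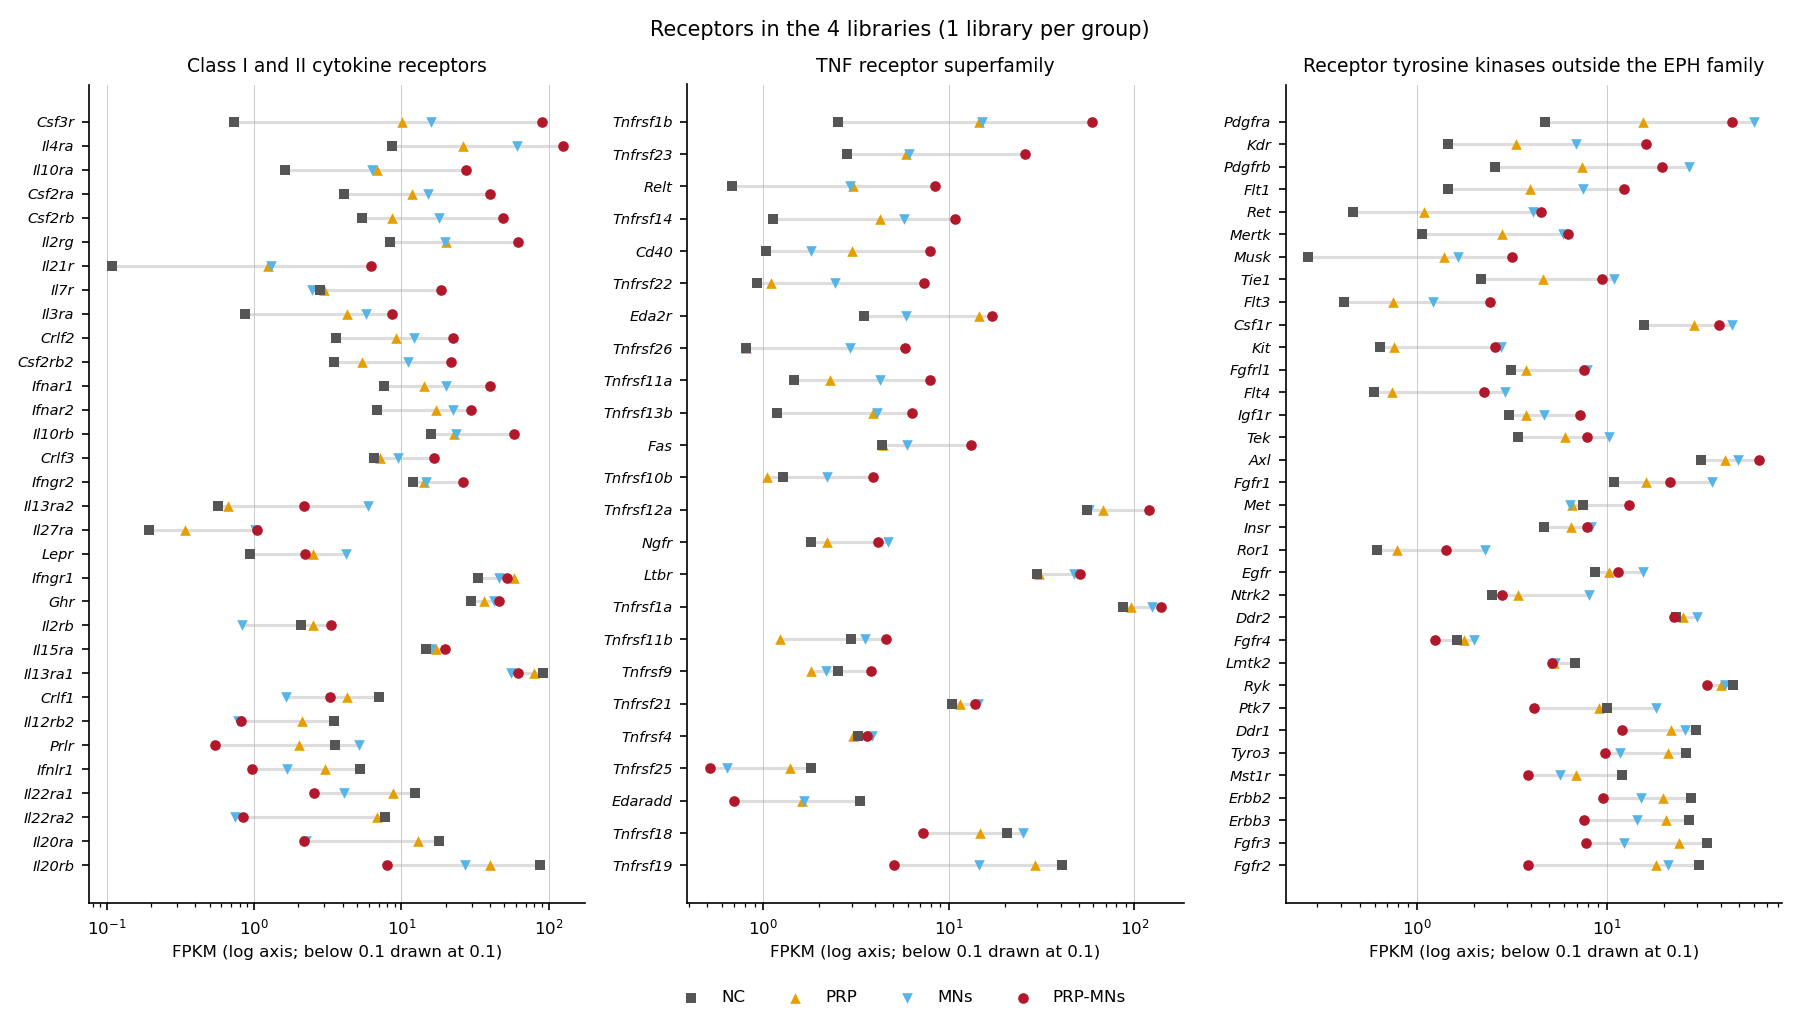
FPKM on a log axis in the 4 libraries for cytokine receptors, TNF receptors and receptor tyrosine kinases, 1 point per library, ordered by the log2 difference between PRP-MNs (red circles) and NC (grey squares). Receptors of leukocytes and vessels such as Csf3r and Tnfrsf1b have PRP-MNs on the right, and epithelial receptors such as Il20rb, Tnfrsf19 and Fgfr2 have it on the left.

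The lists of secreted factors and membrane-bound ligands differed in direction. More members were higher than lower among cytokine, vascular and matrix proteins. More were lower than higher among cystatins, the membrane-bound ephrins and extracellular peptidases. Of 39 matricellular and provisional matrix genes 20 were higher and 5 lower (median 1.01, or 0.56 without the filter), and 38 were present in both libraries. Spp1 (osteopontin), made by macrophages and by injured tissue (chromosome 5 from 104435118 to 104441050, plus strand), was at 545 FPKM in PRP-MNs and 4.74 in NC, with 34.4 in PRP and 38.4 in MNs (6.57). Emilin2 was at 62.7 against 7.17 FPKM, Fbln2 at 58.8 against 6.58 FPKM and tenascin C (Tnc) at 48.9 against 6.17 FPKM. Fibronectin (Fn1) was at 44.2 FPKM in PRP-MNs and 12.3 in NC, with 24.3 in PRP and 74.3 in MNs, so that MNs exceeded PRP-MNs. PRP-MNs held the highest value of the 4 libraries in only 7 of the 20 higher genes, against 2061 of 2462 over all higher genes. The lower members were Postn at 83.2 against 193 FPKM, Ogn at 13.1 against 38.2 FPKM, Aspn, Smoc2 and Mfap2, of which Ogn and Aspn encode small proteoglycans of resting matrix.

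Haematopoietic and inflammatory ligands had 9 of 14 genes higher and 2 lower (median 1.43), and 6 had entered through PRP-MNs alone. Osm (oncostatin M), a cytokine of neutrophils and macrophages that acts on keratinocytes, was at 19.3 FPKM in PRP-MNs and 0.15 in NC, with 0.80 in PRP and 1.5 in MNs (4.14). Csf3 (G-CSF) was at 13.1 FPKM in PRP-MNs, 0.54 in PRP and 0.80 in MNs, and was listed at 0 in NC. Csf1, the growth factor of macrophages, was at 59.6 FPKM in PRP-MNs and 6.66 in NC, with 15.3 in PRP and 29.7 in MNs (2.98), whereas Il34, the other ligand of its receptor and a product of keratinocytes, was at 6.07 FPKM in PRP-MNs and 27.8 in NC, with 12.7 in PRP and 10.04 in MNs (−2.03). Both ligands of Csf1r were measured in every library and ran in opposite orders between NC and PRP-MNs. Il6 was at 18.6 FPKM in PRP-MNs and 0.26 in NC, with 1.14 in PRP and 24.9 in MNs, the highest value being in MNs. Tslp, a keratinocyte cytokine that acts on dendritic cells, was at 1.59 against 15.2 FPKM. Of 9 TNF superfamily ligands 6 were higher and none lower, 4 of the 9 having entered through PRP-MNs alone and 2 of the 5 present in both being higher, with Tnf at 17.3 against 2.80 FPKM and Tnfsf14 (LIGHT) at 12.2 against 0.14 FPKM.

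Vascular factors had 12 of 22 genes higher and none lower (median 1.28), but 7 had entered through PRP-MNs alone, and over the 15 present in both the median was 0.51 with 6 higher (0.58 over all listed genes without the filter). Pgf (placental growth factor) was at 6.87 against 0.13 FPKM and endothelin-1 (Edn1) at 8.26 against 1.09 FPKM, whereas Vegfb was at 11.8 against 12.8 FPKM and Vegfd at 10.3 against 6.97 FPKM. Angptl4, a hypoxia- and lipid-responsive inhibitor of lipoprotein lipase, was at 65.1 FPKM in PRP-MNs and 2.58 in NC, with 4.83 in PRP and 28.4 in MNs (4.21). Among 24 semaphorins, netrins and Slits 9 were higher and 3 lower: Sema4d, of leukocytes, was at 53.1 against 9.74 FPKM and Sema3d at 2.32 against 17.4 FPKM.

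**Figure D5:**
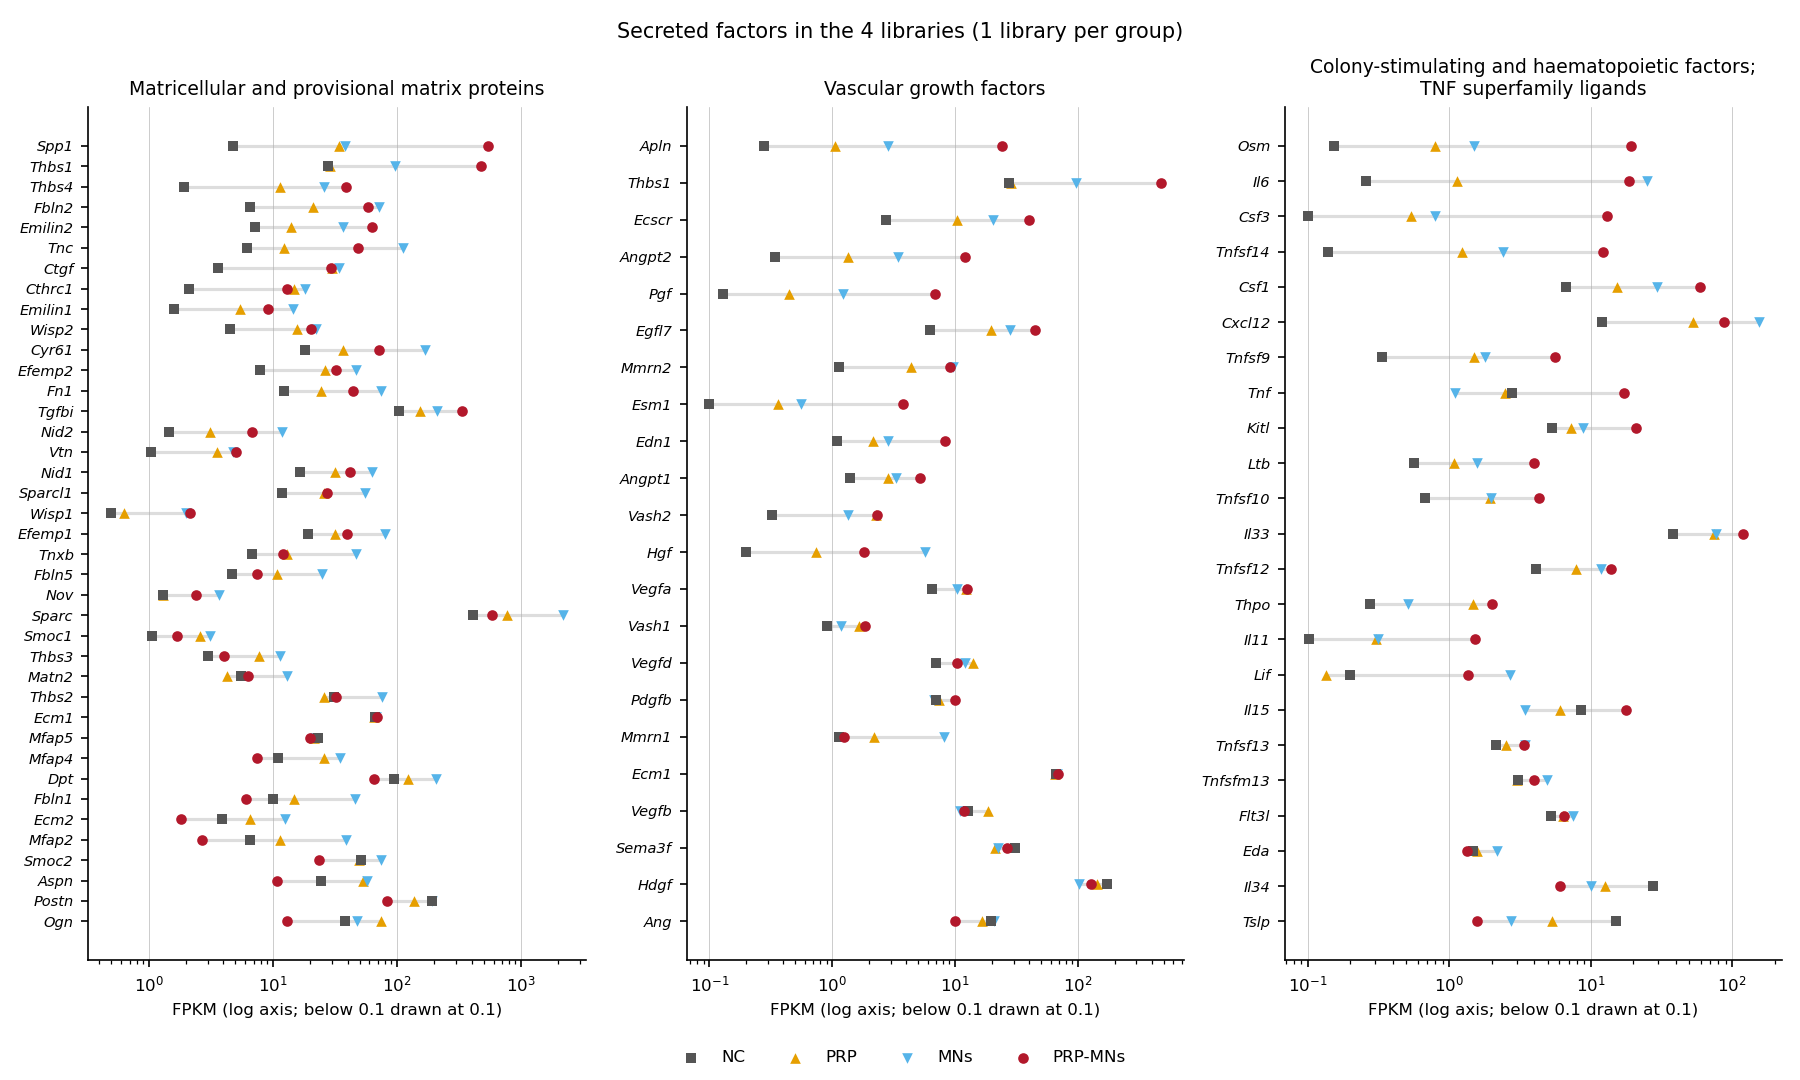
FPKM on a log axis in the 4 libraries for matricellular proteins, vascular factors, haematopoietic factors and TNF ligands, 1 point per library, values under 0.1 FPKM drawn at 0.1, ordered by the log2 difference between PRP-MNs (red circles) and NC (grey squares). Many matricellular genes have MNs (blue triangles) as the highest library, whereas Osm, Csf3 and the TNF ligand genes that were higher have PRP-MNs.

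Hormones, adipokines and stress peptides were higher in 14 of 28 genes and lower in 2 (median 1.03, or 0.28 without the filter), and in 10 of the 20 present in both. Adipocyte markers were higher in 4 of 8, and their part in this list was not tested. The chemoattractant and adipokine Rarres2 (chemerin) was at 230.5 FPKM in PRP-MNs and 42.4 in NC, with 123 in PRP and 374 in MNs, and Il1rn, the antagonist of interleukin-1, was at 256 FPKM in PRP-MNs and 67.5 in NC, with 50.8 in PRP and 16.4 in MNs. Follistatin (Fst), which binds activins, was at 27.1 against 5.49 FPKM. Nppb, a natriuretic peptide, was at 17.3 against 3.38 FPKM. Retnla, a marker of alternatively activated macrophages, was at 7.55 FPKM in PRP-MNs and 127 in NC, with 31.0 in PRP and 58.7 in MNs (−3.91). Other macrophage genes went the other way, with log2 differences of 1.71 for Arg1, 2.58 for Mrc1 and 7.41 for Chil3. Of these, Chil3 had entered through PRP-MNs alone. Retnlg, the neutrophil relative of Retnla, was at 24.9 FPKM in PRP-MNs and 1.15 in NC, with 5.88 in PRP and 5.15 in MNs (3.59). Of the neurotrophic factors Nrtn (neurturin) was at 1.44 FPKM in PRP-MNs and 37.7 in NC, with 21.1 in PRP and 3.18 in MNs (−3.99) and pleiotrophin (Ptn) at 1.5 against 12.9 FPKM, while Nrg1, a ligand of the ERBB3 receptor, was at 7.15 against 0.55 FPKM.

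Antimicrobial proteins ran both ways, 10 of 23 higher and 8 lower (median 0.02). The leukocyte and wound proteins Slpi and Lcn2 were at 176 against 9.39 FPKM and at 72.9 against 5.65 FPKM, and the beta-defensin Defb1 of epithelia was at 17.9 against 61.2 FPKM. Cystatins and stefins, protease inhibitors of cornifying cells and of neutrophils, were lower in 5 of 11 and higher in 1: Cst6 was at 46.7 against 138 FPKM, Stfa3 at 125 against 770.2 FPKM, and Stfa2l1 was at 28.9 FPKM in PRP-MNs and listed at 0 in NC. Stefins are close copies, and their split is uncertain. Among extracellular peptidases (5 of 28 higher, 8 lower) the epidermal serine proteases Tmprss4 and St14 (matriptase) were at 23.9 against 151 FPKM and at 10.5 against 31.5 FPKM.

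Solute carriers as a whole lay near the background, with 43 of 228 higher (18.9%) and 33 lower (14.5%) and a median of 0.17. Individual carriers differed widely. Slc15a3, a lysosomal peptide carrier of macrophages that passes bacterial fragments to sensors, was at 101 FPKM in PRP-MNs and 2.75 in NC, with 8.64 in PRP and 10.1 in MNs (4.77). The amino acid exchangers Slc7a8 and Slc7a7 were at 37.5 against 0.68 FPKM and at 15.7 against 0.41 FPKM, and the nucleoside carrier Slc28a2 at 27.6 against 1.45 FPKM. Lower carriers were Slc16a14 at 0.97 against 14.8 FPKM, Slc15a1, a peptide carrier, at 1.42 against 11.4 FPKM, and the thiamine carrier Slc19a2 at 6.19 against 31.7 FPKM. The cholesterol exporters Abca1 and Abcg1, which oxysterol receptors switch on in macrophages, were at 19.5 against 5.38 FPKM and at 18.9 against 4.30 FPKM, and Abca12, which fills the lipid granules of keratinocytes, was at 14 against 50.5 FPKM. Of the channels, Trpv2 and Piezo1 were at 13.6 against 2.79 FPKM and at 25.6 against 10.9 FPKM, and the keratinocyte channel Trpv3 was at 2.58 against 10.7 FPKM.

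Inhibitors of cytokine and kinase signalling were higher in part. Of 8 SOCS inhibitors 4 were higher and 1 lower (median 0.72), with Socs3, which limits signalling through gp130 receptors, at 121 FPKM in PRP-MNs and 24.2 in NC, with 38.0 in PRP and 41.0 in MNs (2.27) and Cish at 5.13 against 11.4 FPKM. Dual specificity phosphatases were higher in 7 of 22 and lower in 3, among them Dusp1, which turns off stress kinases, at 118 against 38.4 FPKM and Dusp14 at 12.1 against 46.0 FPKM.

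Of 22 caspase and necroptosis genes, all present in both libraries, 11 were higher and 1 lower (median 1.03). Zbp1, a nucleic acid sensor that starts necroptosis (chromosome 2 from 173206612 to 173218923, minus strand), was at 136 FPKM in PRP-MNs and 2.91 in NC, with 37.7 in PRP and 14.3 in MNs (5.13). Mlkl, the pore former of necroptosis, was at 26.7 FPKM in PRP-MNs and 2.10 in NC, with 7.34 in PRP and 9.77 in MNs (3.16), and its kinase Ripk3 was at 17.8 against 6.24 FPKM. The inflammatory caspases Casp4 and Casp1 were at 35.8 against 6.11 FPKM and at 23.5 against 9.33 FPKM. The lower member was Casp14, the caspase of cornification, at 21.7 FPKM in PRP-MNs and 166 in NC, with 91.6 in PRP and 30.6 in MNs (−2.88). In all 11 higher genes PRP-MNs held the highest value of the 4 libraries. Of 22 BCL2 family genes 7 were higher and 2 lower, with the death promoters Bcl2l11 (BIM) at 17.5 against 1.30 FPKM and Bax at 67.8 against 20.4 FPKM. Among p53-responsive genes, 6 of 25 higher and 2 lower, Perp, which also serves desmosomes of the epidermis, was at 434 FPKM in PRP-MNs and 2091 in NC, with 1237 in PRP and 689 in MNs (−2.27).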

How the data were processed

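Libraries of mouse skin, 1 for each of 4 groups, were made from 1 µg of RNA with the NEBNext Ultra kit, per the labels' protocols. The authors deposited 1 table of FPKM values, which scale fragments to transcript length and library depth. Per the submitters' processing notes, reads were placed on GRCm38. Of the aligner, quantifier, annotation and strand setting each is not given in the sources used here, and overlapping genes are therefore uncertain. Of 25571 genes 3535 were models assembled from reads, and 22022 of 22036 Ensembl identifiers matched GENCODE M21, the source of the coordinates. A set of 27 symbols turned into dates was restored through identifiers, and of 19 symbols on 2 identifiers the more abundant one was used. FPKM sums were 460805 in PRP-MNs and 515230 in NC, with 12.6% and 13.7% mitochondrially encoded.

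Genes at 1 FPKM or more in either library were compared as log2((FPKM + 1)/(FPKM + 1)), with 2-fold as the threshold, in Python 3.11.15 with pandas 2.3.3, numpy 2.4.6 and matplotlib 3.10.9. The calculation was tested on simulated data. The authors' FPKM give no counts: 25.4% and 24.8% of low values lay within 0.02 of whole fragments, against medians of 2.64% and 2.76% at other steps, and no count test was run. The 107 lists (18 of markers) and their members were chosen with earlier results of these data known. Named genes were the 30 highest and 30 lowest at 5 FPKM or more, up to 4 highest and 4 lowest past 2-fold and the 3 most abundant of each list, and the markers; 49 further list members were named after their values were seen. A few list members are counted but not reported here by name. Promoters were matched through symbols and gene identifiers. Alternatives changed the pseudocount (0.1), the filter (5 FPKM or none), the scaling and the identifiers used.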

Additional observations from a re-analysis of the deposited data

How the results depend on the processing

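No paired analysis was possible because each group had 1 library, and for the same reason no library could be left out. Under the 7 alternatives the number of genes at least 2-fold higher lay between 1888 (filter at 5 FPKM) and 3055 (pseudocount 0.1 FPKM), and the number lower between 1245 and 2003 under the same settings, against 2462 and 1607. Scaling both libraries to the same FPKM sum moved the median of all genes from 0.14 to 0.29 and gave 2850 higher and 1377 lower genes, and centring on the median gave 2061 and 1933, so that 67.4% and 51.6% of the called genes were higher in place of 60.5%. Of 594 named genes past 2-fold, 24 fell under it with the same sum, 20 with centring, 20 with the same sum without mitochondrially encoded genes and none with the pseudocount of 0.1, and none changed sign under these 4 settings. Of 30 lists with a median past 2-fold, 8 fell under it with centring and 14 without the filter on low values, and none reversed under any of the 7 alternatives. Differences between values near 0.174 FPKM in PRP-MNs or 0.155 FPKM in NC, the level of 3 fragments on a transcript of 1 kb at the lower of the depths given, are not resolved.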

Other observations

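The 827 gene models assembled from reads that reached 1 FPKM gave 183 higher and 211 lower, with a median of −0.20, whereas over the 13154 Ensembl genes 2279 were higher and 1396 lower. Their sequences and coordinates were not used here.

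Among enzymes outside the lists described so far, the carbonic anhydrases had 2 of 9 genes higher and 3 lower. Of the 9, 2 had entered through PRP-MNs alone, Car4 among them, and 2 through NC alone, which fixes their direction. Over the 5 present in both, 0 were higher and 2 lower. Car4, a form anchored to the cell surface, was at 27.2 against 0.55 FPKM, and Car12 at 7.37 against 36.0 FPKM. Of 26 potassium channel genes 8 were higher and 3 lower, but 11 had entered through PRP-MNs alone and the median of 0.65 was 0.01 without the filter. Kcnn4, a calcium-activated channel of immune cells, was at 8.0 against 1.05 FPKM. Of 7 galectins 3 were higher and 1 lower: Lgals1 was at 553 against 115 FPKM and Lgals9 at 139 against 23.6 FPKM, while Lgals7, the galectin of stratified epithelia, is among the suprabasal markers. None of 6 B cell and plasma cell genes reached 1 FPKM in either library.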
